A study of Mus musculus with 2 samples.

Results

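The genes of the T cell receptor complex and its proximal signalling pathway were followed on 2 Affymetrix arrays, 1 of circKcnt2-deficient cells and 1 of WT cells. The group was a named list of 38 genes, chosen by function and matched to the probe sets of the table by gene symbol. Of these, 37 were measured, each by 1 probe set, among 19505 named genes on the array. Lck, the Src family kinase that acts first in the pathway, had no probe set under its symbol and is not analysed here.

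circKcnt2 is a circular RNA made by back-splicing of the Kcnt2 transcript. The circKcnt2-deficient mice carried a CRISPR/Cas9 deletion of the intronic complementary sequences that circle formation needs, and the WT animals were their littermates. Both groups received dextran sodium sulfate (DSS), which injures the colonic epithelium, and the study keeps its strains on a C57BL/6 background. The RNA came from sorted Lin-CD90highCD45low cells, a gate used for group 3 innate lymphoid cells (ILC3s). The labels give neither the age of the animals, nor the day of sorting, nor how many mice were pooled, and they do not say whether these mice also lacked Rag1, as animals in other experiments of the study did.

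In T cells, the antigen receptor has no enzymatic activity of its own and signals through the CD3 and zeta chains that surround it. Src family kinases phosphorylate these chains, ZAP-70 docks on them and phosphorylates the adaptors LAT and SLP-76, and the resulting platform activates phospholipase C, calcium entry with nuclear translocation of NFAT, Ras signalling and NF-κB. ILC3s lack a rearranged antigen receptor and answer to cytokines such as IL-23 and IL-1, although parts of this machinery are known in innate lymphocytes too.

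All values are log2 levels as deposited, and every difference is the circKcnt2-deficient level minus the WT level. With 1 array for each genotype there is no replicate error, no difference could be tested, and fewer cells of a type cannot be told apart from less RNA per cell. Background was set at 2.73, the level that 95% of olfactory and vomeronasal receptor genes stayed below, and 12502 genes reached it on at least 1 array. The label ILC3 was set against marker genes. Il23r was at 2.16 on the circKcnt2-deficient array and 1.91 on the WT array, and Il1r1, Ccr6 and Ncr1 were also below background on both, whereas Il7r (7.70 in circKcnt2-deficient and 7.86 in WT cells) and Id2 (8.39 in circKcnt2-deficient and 8.40 in WT cells) were well above it. All 12 measured T cell markers of 17 listed were above the highest control probe on both arrays, with summed linear levels of 7676 in circKcnt2-deficient and 7309 in WT cells. Most of these are members of the group described here, and of the others, the transcription factor Bcl11b was at 8.80 in circKcnt2-deficient and 8.82 in WT cells. Genes known from CD4+CD8+ double-positive thymocytes were present as well, among them Dntt, the terminal transferase of receptor rearrangement, at 8.24 in circKcnt2-deficient and 8.25 in WT cells, and Ptcra, the pre-T cell receptor alpha chain, at 6.53 in circKcnt2-deficient and 6.17 in WT cells. The arrays thus go against the label, and the cells are called here cells labelled ILC3. Kcnt2 itself was below background on both arrays. The study reports its mRNA as unaffected in circKcnt2-deficient mice, so its level gives no check of genotype. The Y-linked transcript Uty was at 1.24 on the circKcnt2-deficient array and 5.26 on the WT array, so differences between the sexes of the mice cannot be told apart from differences between the genotypes.

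All 37 measured genes were expressed well above background on both arrays, and none differed by as much as 1.5-fold between them. Their levels ran from 5.18 to 10.16 in circKcnt2-deficient cells and from 5.39 to 9.98 in WT cells. Of the 37, 33 also lay above the highest of 23 control probes matched for GC content (5.91) on both arrays. The exceptions were Bcl10, Malt1 and Nfatc2, which were under it on both arrays, and Ubash3a, which was under it on the WT array. Differences ran from -0.44 for Bcl10 to 0.50 (1.41-fold) for Txk. Past this threshold were 0 of the 37 in either direction, against a background over all genes of 7.66% for higher levels in circKcnt2-deficient cells and 5.22% for lower ones.

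At a lower threshold, a log2 difference of 0.32, 10 genes were higher in circKcnt2-deficient cells and 1 was lower, against a background of 22.9% and 16.1% of all genes. The 10 were Cd3d, Icos, Zap70, Txk, Trat1, Sit1, Skap1, Ptpn22, Cblb and Ubash3a, which make 27.0% of the group, and the gene on the lower side was Bcl10 (2.70%). Among genes in the range of levels that the group spans, 24.6% were past this threshold on the higher side and 4.28% on the lower. Of the 10, only Txk was still past it after quantile normalization or loess correction, where 17.2% and 18.5% of all genes were past it on the higher side. By any amount, 29 of the 37 (78.4%) were higher and 8 were lower, against a background of 56.4% higher among all genes. Brighter genes were in general more often higher on the circKcnt2-deficient array. Among the 4552 genes within the range of mean levels that the group spans, 72.3% were higher, and their median difference was 0.14, beside 0.18 for the 37 genes and 0.06 for all genes. In 20 bins of level, all 37 genes lay inside the middle 95% of genes of like level, and 21 of the 37 lay above the median of their bin.

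**Figure D1:**
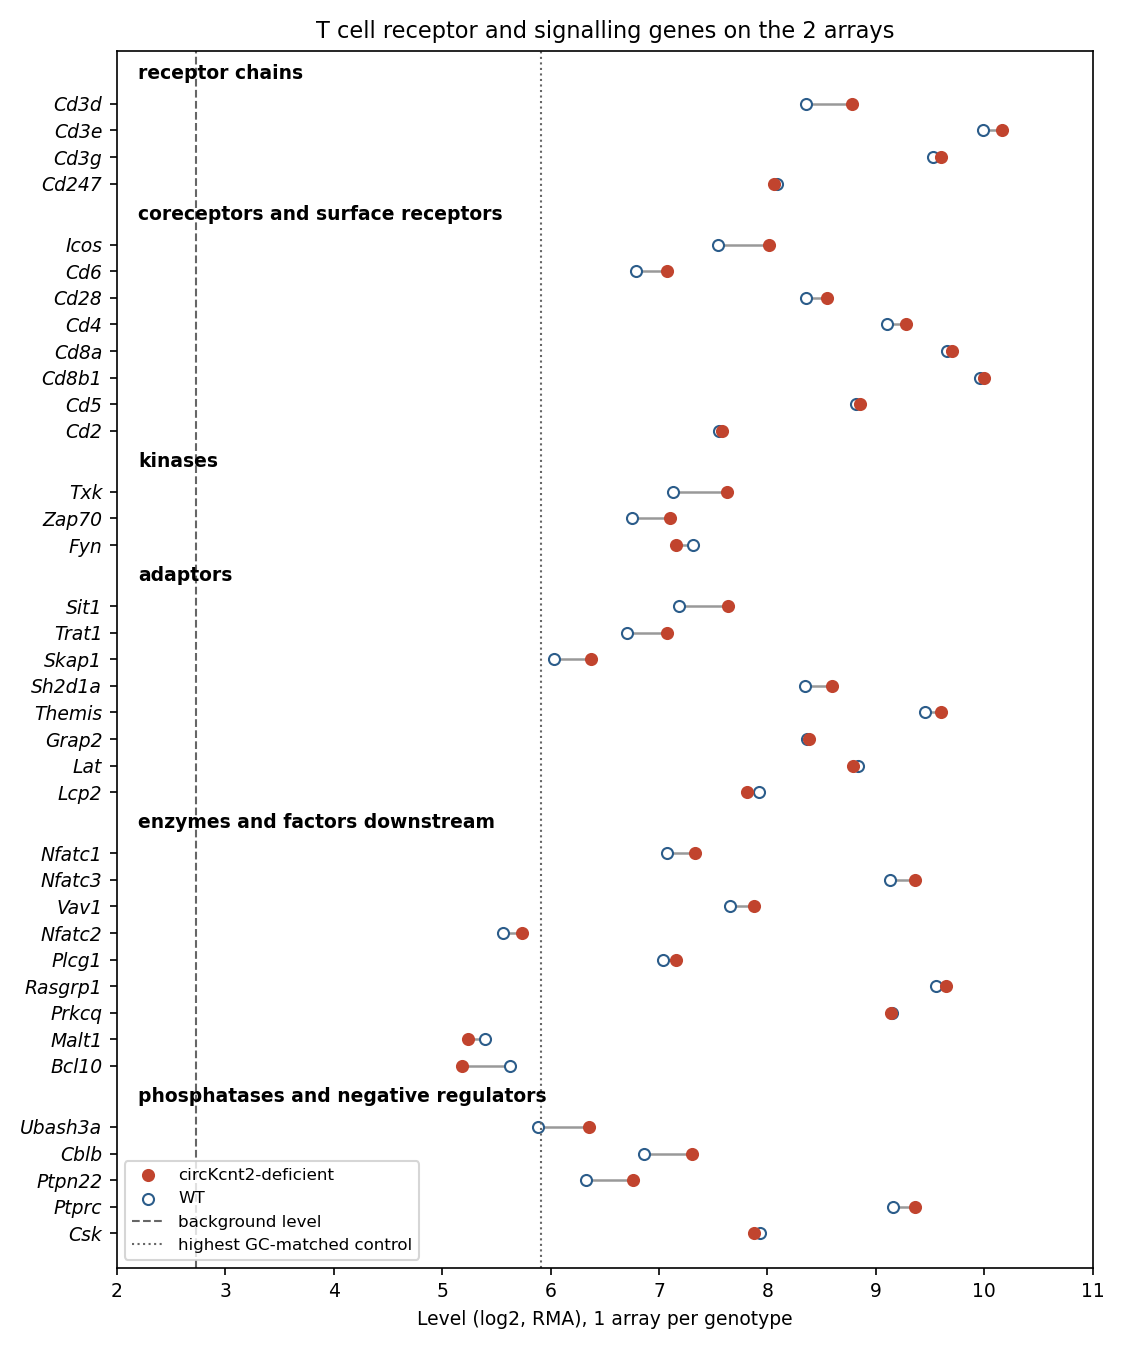
Log2 level of each of the 37 measured genes on the circKcnt2-deficient array (filled red) and the WT array (open blue), grouped by role; the dashed line marks the background level of 2.73 and the dotted line the highest GC-matched control at 5.91. Every pair of points lies above background and no pair is more than 0.50 apart.

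**Figure D2:**
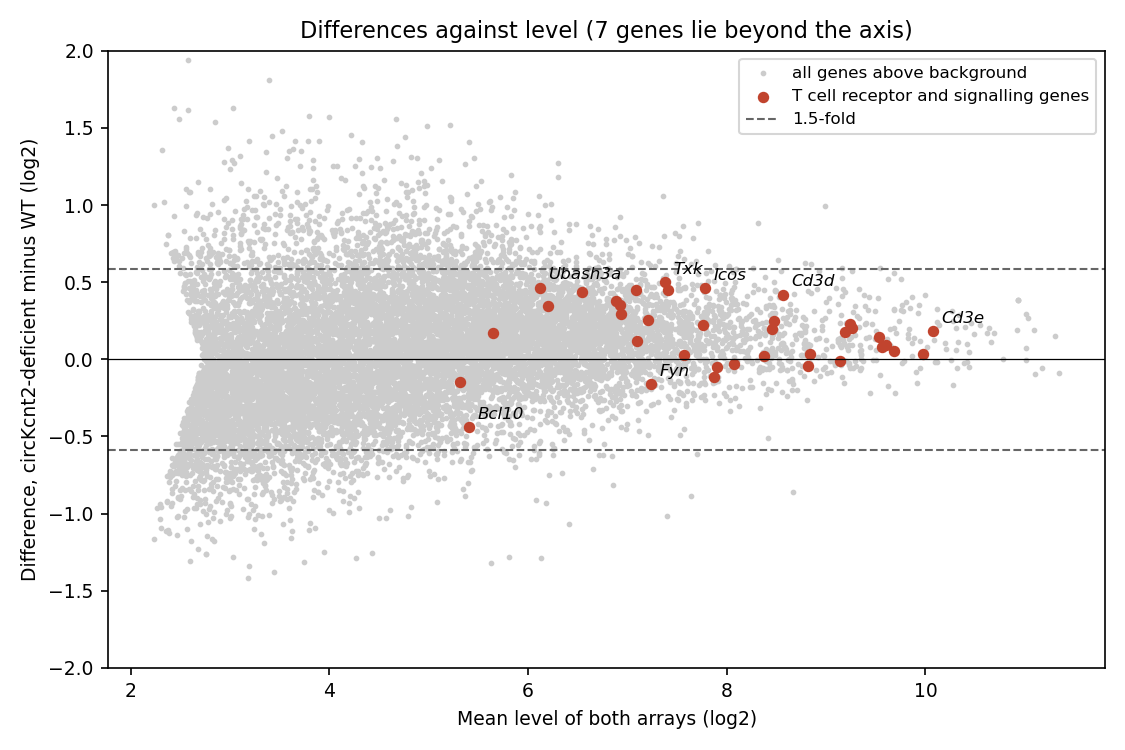
Difference (circKcnt2-deficient minus WT, log2) against mean level for all genes above background (grey) and the 37 genes (red), with dashed lines at 1.5-fold; 7 genes lie beyond the vertical axis. All 37 red points lie between the dashed lines, among grey points of the same level.

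The excess of higher over lower differences depended on how the arrays were scaled. It was 29 against 8 as deposited, 24 against 13 after the median difference of all genes was subtracted, 21 against 16 after a loess correction on level, and 19 against 18 after quantile normalization of both columns. Of all genes, 56.4%, 50%, 49.8% and 47.0% were higher in the same settings. The median of the 37 genes was 0.18, 0.12, 0.04 and 0.02, beside 0.06, 0, -0.001 and -0.02 for all genes. In each of these settings none of the 37 reached 1.5-fold, and Txk had the highest and Bcl10 the lowest difference among them. The number of the 37 above 0 was thus set in part by the scale chosen, and the share over all genes moved with it.

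**Figure D3:**
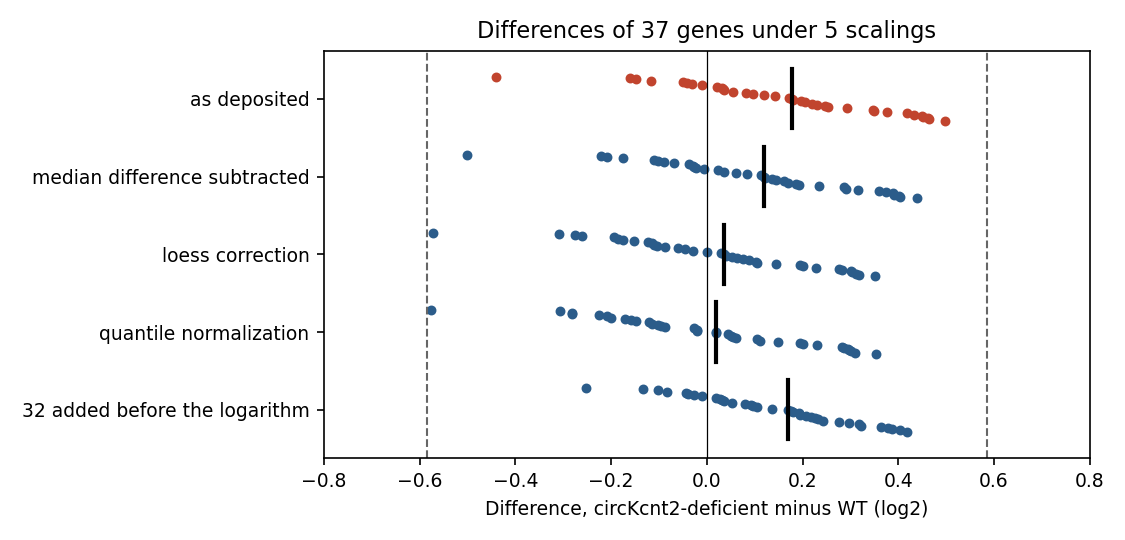
Differences of the 37 genes (circKcnt2-deficient minus WT, log2) as deposited (red) and under 4 other scalings (blue); points are genes in order of value, black bars are medians and dashed lines mark 1.5-fold. The median is 0.18 as deposited and 0.02 after quantile normalization, and no point crosses a dashed line.

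The receptor's invariant chains were the first group by role. CD3 delta, gamma and epsilon form the dimers that bring the receptor to the surface, and their genes lie side by side on chromosome 9. Cd3d was at 8.78 in circKcnt2-deficient cells and 8.36 in WT cells, a difference of 0.42. Cd3e was at 10.16 in circKcnt2-deficient cells and 9.98 in WT cells, and its difference of 0.18 became -0.02 after quantile normalization. Cd3g was at 9.61 in circKcnt2-deficient cells and 9.52 in WT cells, and its difference of 0.08 turned below 0 after both quantile normalization (-0.10) and loess correction (-0.06). Of these 3 neighbours Cd3d alone was past the threshold of 0.32. Cd247, the zeta chain with most of the complex's signalling motifs, was at 8.06 in circKcnt2-deficient cells and 8.09 in WT cells. The median difference of the 4 chains was 0.13.

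The CD3 genes are neighbours with promoters of their own, so the 150 bases before each start site are shown, from RefSeq promoters of GRCm38.p6, written 5′ to 3′ on the strand of the gene. The Cd3e window is chr9:45009612-45009761 on the minus strand, that of Cd3d is chr9:44981636-44981785 on the plus strand and that of Cd3g is chr9:44980432-44980581 on the minus strand. Capitals mark matches, on either strand, to 4 motifs of factors active in lymphocytes: E-box (CANNTG), RUNX (TGTGGT), ETS (GGAAGT) and TCF/LEF (CTTTGA).
Cd3e promoter: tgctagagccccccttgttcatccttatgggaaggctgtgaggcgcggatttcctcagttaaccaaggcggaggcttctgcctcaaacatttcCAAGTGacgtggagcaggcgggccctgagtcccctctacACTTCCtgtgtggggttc
Cd3d promoter: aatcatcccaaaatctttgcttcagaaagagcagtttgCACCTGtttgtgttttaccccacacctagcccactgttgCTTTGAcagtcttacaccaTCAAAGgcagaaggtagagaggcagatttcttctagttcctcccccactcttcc
Cd3g promoter: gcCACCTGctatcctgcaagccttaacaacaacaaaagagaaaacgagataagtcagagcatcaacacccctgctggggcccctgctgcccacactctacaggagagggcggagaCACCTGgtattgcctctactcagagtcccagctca
Cd3d and Cd3g are read in opposite directions from start sites 1355 bases apart. The Cd3e window held 1 E-box and 1 ETS match, the Cd3d window 1 E-box and 2 TCF/LEF matches, and the Cd3g window 2 E-boxes, with no overlap among the 7 matches. Of the 37 genes, 27 were found in the promoter table. E-box letters were in 15 of these 27 windows (55.6%, against 47.3% of 27025 promoters of the same length), ETS letters in 8 (29.6%, against 13.9%), TCF/LEF letters in 7 (25.9%, against 8.06%) and RUNX letters in 1 (3.70%, against 8.51%). In 5 of the 27, Txk, Cblb and Bcl10 among them, none of the 4 was in the window, which says only that these letters are not there. The matches are a description of sequence, and no binding was measured.

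All 8 coreceptors and other surface receptors were higher on the circKcnt2-deficient array as deposited, with a median of 0.12. Among genes above background in the range of levels that the whole group spans, 72.3% were higher, with a median of 0.14. The median of the 8 was -0.04 after quantile normalization and -0.03 after loess correction. Cd4, the coreceptor for class II MHC, was at 9.28 in circKcnt2-deficient cells and 9.10 in WT cells. The class I coreceptor chains were nearly equal between the arrays, Cd8a being at 9.71 in circKcnt2-deficient and 9.65 in WT cells. Cd8b1, its neighbour on chromosome 6, was at 10.00 in circKcnt2-deficient and 9.96 in WT cells. The differences of both Cd8 chains turned below 0 after median subtraction, quantile normalization and loess correction, to -0.16 for Cd8a and -0.15 for Cd8b1 after quantile normalization. Both coreceptor types were thus present at once in each RNA sample.

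Among costimulatory receptors, Icos had the widest gap. It encodes the inducible costimulator, which binds ICOS ligand on antigen-presenting cells, and was at 8.01 in circKcnt2-deficient cells and 7.55 in WT cells, a difference of 0.46 (1.38-fold). Cd28, the main costimulatory receptor of naive T cells, was at 8.55 in circKcnt2-deficient cells and 8.35 in WT cells. Cd6, which binds ALCAM, was at 7.08 in circKcnt2-deficient cells and 6.78 in WT cells. Its chromosome 19 neighbour and relative Cd5, an inhibitor of receptor signalling, was at 8.85 in circKcnt2-deficient cells and 8.82 in WT cells. The adhesion receptor Cd2 was at 7.58 in circKcnt2-deficient cells and 7.55 in WT cells. For Cd5 and Cd2 the differences of 0.03 were below 0 after median subtraction, quantile normalization and loess correction, whereas those of Icos, Cd28 and Cd6 kept their sign.

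The 3 measured kinases lay on both sides of 0. Txk (probe set TC0500002579.mm.2), a Tec family kinase also called Rlk that phosphorylates phospholipase C gamma, was at 7.63 in circKcnt2-deficient cells and 7.13 in WT cells, and its difference of 0.50 was the highest of the 37. Zap70, the kinase recruited to phosphorylated zeta chains, was at 7.10 in circKcnt2-deficient cells and 6.75 in WT cells, a difference of 0.35. Fyn, a Src family kinase that shares substrates with Lck, was on the other side of 0, at 7.16 in circKcnt2-deficient cells and 7.32 in WT cells (difference -0.16). The median of the 3 was 0.35, and it was 0.20 after quantile normalization.

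The core scaffold of the adaptors was nearly level between the arrays. Lat, the membrane platform that ZAP-70 phosphorylates, was at 8.79 in circKcnt2-deficient cells and 8.83 in WT cells. Lcp2, which encodes SLP-76, was at 7.81 in circKcnt2-deficient cells and 7.93 in WT cells. Grap2, which encodes GADS, the bridge between LAT and SLP-76, was at 8.38 in circKcnt2-deficient cells and 8.36 in WT cells, and its difference of 0.02 was below 0 after median subtraction, quantile normalization and loess correction. None of the 3 was past the lower threshold. Themis, a GRB2-associated protein needed for thymocyte selection, was at 9.60 in circKcnt2-deficient cells and 9.46 in WT cells, and its difference of 0.14 was -0.03 after quantile normalization.

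The remaining adaptors, Sit1, Trat1, Skap1 and Sh2d1a, had wider gaps, all toward higher levels in circKcnt2-deficient cells. Sit1, a transmembrane adaptor that dampens receptor signalling, was at 7.63 in circKcnt2-deficient cells and 7.18 in WT cells (difference 0.45). Trat1, a transmembrane adaptor that associates with the receptor complex, was at 7.08 in circKcnt2-deficient cells and 6.70 in WT cells (0.38). Skap1, which links receptor signalling to integrin adhesion, was at 6.38 in circKcnt2-deficient cells and 6.03 in WT cells (0.35). These 3 were the adaptors past the lower threshold. Sh2d1a, which encodes SAP, the adaptor of SLAM family receptors, was at 8.59 in circKcnt2-deficient cells and 8.35 in WT cells. The median of the 8 adaptors was 0.19, and 0.04 after quantile normalization.

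Downstream of the scaffold, the enzymes were close between the arrays. Plcg1, the phospholipase C that makes the calcium and diacylglycerol signals, was at 7.16 in circKcnt2-deficient cells and 7.04 in WT cells. Rasgrp1, the diacylglycerol-dependent activator of Ras, was at 9.65 in circKcnt2-deficient cells and 9.55 in WT cells. The differences of Plcg1 (0.12) and Rasgrp1 (0.10) were below 0 after quantile normalization and loess correction. Vav1, a guanine nucleotide exchange factor that acts on the cytoskeleton, was at 7.87 in circKcnt2-deficient cells and 7.65 in WT cells. Prkcq, which encodes the protein kinase C theta of the NF-κB branch, was at 9.14 in circKcnt2-deficient cells and 9.15 in WT cells. None of these 4 reached the lower threshold.

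Bcl10 and Malt1, which act together in the NF-κB branch, were the lowest of the downstream genes by difference. Bcl10 (probe set TC0300001484.mm.2), a filament-forming adaptor, was at 5.18 in circKcnt2-deficient cells and 5.63 in WT cells. Its difference of -0.44, or 1.36-fold higher in WT, was the lowest of the 37 and came closest to the edge of its like-level band, which began at -0.46. Malt1, the paracaspase that binds BCL10, was at 5.24 in circKcnt2-deficient cells and 5.39 in WT cells (-0.15). Both levels were within the range of the GC-matched controls.

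The 3 NFAT genes, transcription factors released to the nucleus by calcineurin, all had small positive differences. Nfatc1 was at 7.33 in circKcnt2-deficient cells and 7.08 in WT cells. Nfatc3 was at 9.36 in circKcnt2-deficient cells and 9.13 in WT cells. Nfatc2 was at 5.74 in circKcnt2-deficient cells and 5.57 in WT cells. The range of the 3 was 0.17 to 0.25, less than the threshold of 0.32, and their sign held under each scaling tried. The median of all 9 downstream genes was 0.12 as deposited, -0.02 after quantile normalization and -0.03 after loess correction.

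The phosphatases and negative regulators had the highest median of the 6 roles, 0.43 over 5 genes, and 0.29 after quantile normalization. Ubash3a, which encodes STS-2, a suppressor of T cell receptor signalling, was at 6.35 in circKcnt2-deficient cells and 5.89 in WT cells (0.46). Cblb, a ubiquitin ligase that raises the threshold for activation, was at 7.31 in circKcnt2-deficient cells and 6.86 in WT cells (0.45). Ptpn22, a phosphatase that acts on Src family kinases and ZAP-70, was at 6.76 in circKcnt2-deficient cells and 6.33 in WT cells (0.43). All 3 were past the lower threshold, which makes 60% of the 5 genes, against a background of 22.9% of all genes. The inhibitory adaptor Sit1 above was also past it, whereas the inhibitory receptor Cd5 was not (0.03). Of Ubash3a, Cblb, Ptpn22 and Sit1, none was past it after quantile normalization or loess correction. Csk, the kinase that places the inhibitory phosphate on Src family kinases and a partner of PTPN22, was not higher, at 7.88 in circKcnt2-deficient cells and 7.93 in WT cells. Ptprc, which encodes CD45, the phosphatase that removes that phosphate, was at 9.36 in circKcnt2-deficient cells and 9.16 in WT cells. CD45 was part of the sorting gate, so its level is not independent of how the cells were chosen.

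**Figure D4:**
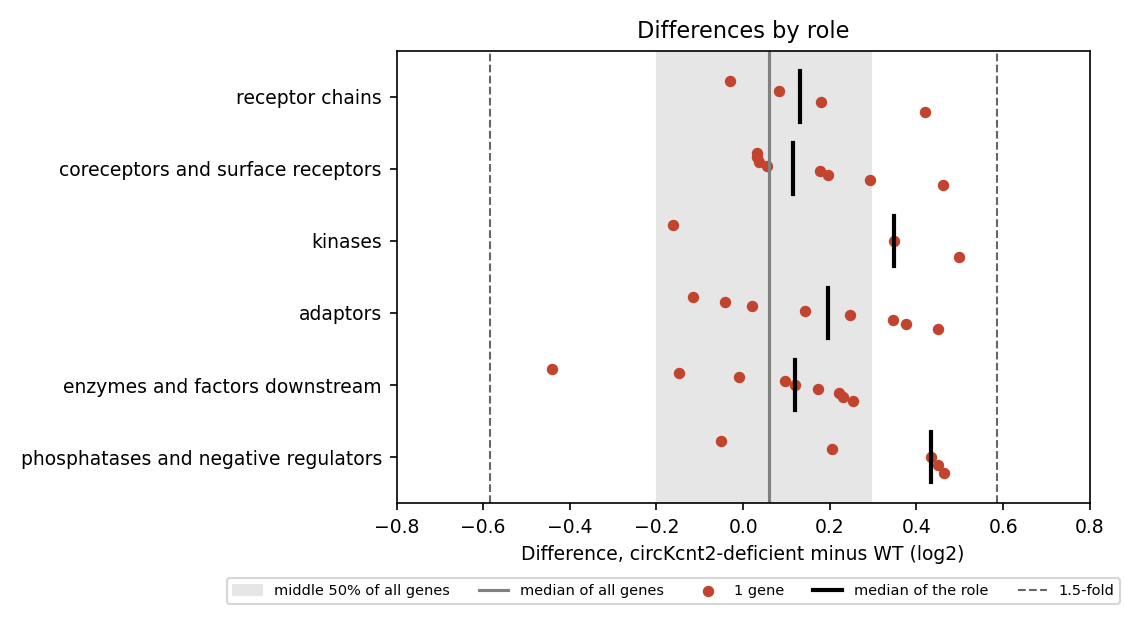
Difference (circKcnt2-deficient minus WT, log2) of each gene by role, with the median of the role as a black bar, dashed lines at 1.5-fold, and the median (grey line) and middle 50% (grey band) of all genes above background. Medians run from 0.12 for surface receptors and for downstream genes to 0.43 for phosphatases and negative regulators.

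Further genes of the pathway were taken from 3 lists. Of 38 other signalling components, 29 were measured, all above background on both arrays, and their median difference was 0.09. Past 1.5-fold were 1 of these on the higher side and 0 on the lower, with 7.66% and 5.22% as the background over all genes. That gene was Tec, the founding member of the Tec kinase family and the chromosome 5 neighbour of Txk, at 4.73 in circKcnt2-deficient cells and 3.96 in WT cells (difference 0.77, and 0.30 with 32 added before the logarithm). Its level was within the range of the GC-matched controls. Ppp3ca, a catalytic subunit of calcineurin, and Orai1, the calcium channel of the plasma membrane, were the 2 genes past the threshold of 0.32 on the lower side, against 3 of the 29 on the higher side (background 16.1% and 22.9%). The 3 were Tec, the inhibitory adaptor gene Lax1 (6.38 in circKcnt2-deficient and 5.92 in WT cells) and Was, a regulator of actin assembly (4.49 in circKcnt2-deficient and 4.17 in WT cells). Ppp3ca was at 5.51 in circKcnt2-deficient cells and 5.99 in WT cells. Orai1 was at 5.32 in circKcnt2-deficient cells and 5.76 in WT cells. Orai1 and Was were under the highest GC-matched control (5.91) on both arrays, and Ppp3ca was under it in circKcnt2-deficient cells. Lax1, Was, Ppp3ca and Orai1 were named after their values were seen.

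Of 18 further negative regulators, 17 were above background, with a median of 0.06, 0 past 1.5-fold on the higher side and 1 on the lower, beside the same 7.66% and 5.22% of all genes. That gene was Ubash3b, which encodes STS-1, the paralog of the Ubash3a product, at 5.47 in circKcnt2-deficient cells and 6.08 in WT cells (-0.61, and -0.38 with 32 added). The 2 paralogs thus lay on opposite sides of 0. In circKcnt2-deficient cells Ubash3b was under the highest GC-matched control (5.91). Ptpn6, which encodes the phosphatase SHP-1, was at 6.86 in circKcnt2-deficient cells and 6.75 in WT cells, and Cbl, the relative of Cblb, was at 8.47 in circKcnt2-deficient cells and 8.27 in WT cells. The longer list thus had a median of 0.06, beside 0.43 for the 5 phosphatases and negative regulators of the group.

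The early target genes of receptor signalling spread more widely than the components. Of 19, 18 were above background on at least 1 array, with a median of 0.02. At 1.5-fold, 2 were higher in circKcnt2-deficient cells and 3 were lower, the share over all genes being 7.66% and 5.22%. At the threshold of 0.32 there were 5 higher and 5 lower, against 22.9% and 16.1% of all genes. The 3 encode subunits of AP-1, a transcription factor that partners NFAT on many target genes. Fos was at 4.97 in circKcnt2-deficient cells and 6.29 in WT cells (-1.32), and it was -0.80 with 32 added. Jun was at 5.48 in circKcnt2-deficient cells and 6.77 in WT cells (-1.29, and -0.88 with 32 added). Junb was at 5.88 in circKcnt2-deficient cells and 6.95 in WT cells (-1.07, and -0.78 with 32 added). In circKcnt2-deficient cells all 3 were under the highest GC-matched control (5.91), and in WT cells they were above it.

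On the higher side were Myc, a growth regulator, at 7.77 in circKcnt2-deficient cells and 6.97 in WT cells (0.80), and Tnf, the inflammatory cytokine, at 4.67 in circKcnt2-deficient cells and 3.76 in WT cells (0.91, and 0.34 with 32 added). Others past the lower threshold were Tnfrsf9, Cd40lg and Il2ra on the higher side and Irf4 and Egr3 on the lower. Egr3 only just passed it (-0.32), and Il2ra was below background in WT cells (2.53). Levels of Tnf, Tnfrsf9, Il2ra, Irf4 and Egr3 were within the range of the GC-matched controls on both arrays. Nr4a1, which encodes Nur77, a reporter of receptor signal strength, was at 7.30 in circKcnt2-deficient cells and 7.37 in WT cells. Cd69 was at 8.82 in circKcnt2-deficient cells and 8.73 in WT cells. Il2 was below background on both arrays. The early targets thus split evenly, 9 being higher and 9 lower by any amount, beside 56.4% of all genes higher.

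**Figure D5:**
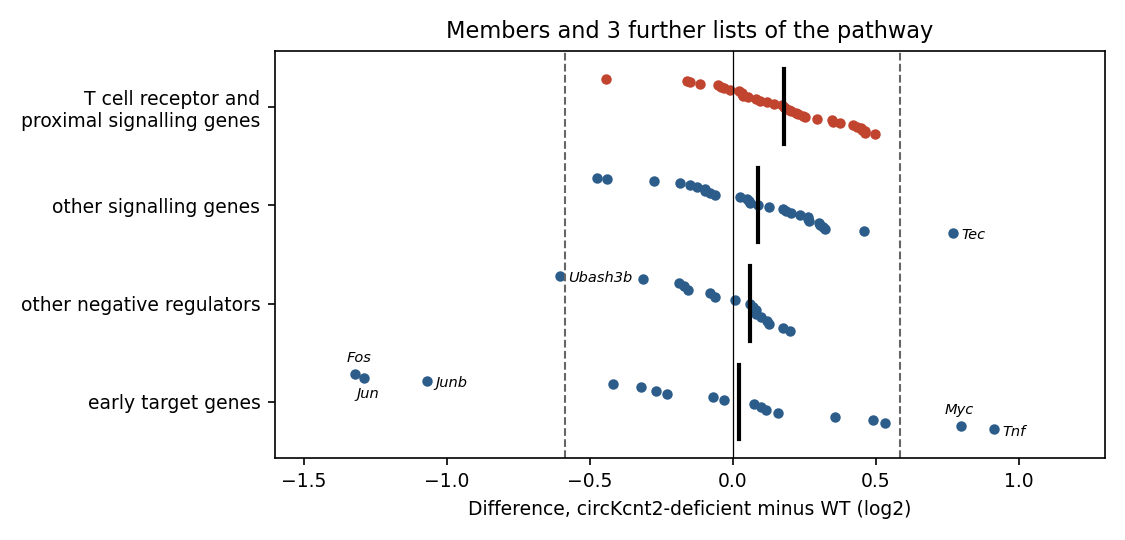
Differences (circKcnt2-deficient minus WT, log2) of the 37 genes and of 3 further lists of the pathway, with medians as black bars and dashed lines at 1.5-fold; genes past 1.5-fold are named. The 37 genes all lie between the dashed lines, while Fos, Jun and Junb lie at -1.07 or below.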

How the data were processed

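Total RNA of sorted cells from circKcnt2-deficient and WT mice was labelled with biotin and hybridized, 1 array per genotype. The authors deposited a log2 level for each probe set, made with Affymetrix Power Tools and RMA according to the submitters' processing notes, in which no version was found. The notes name a Mouse Gene 2.0 protocol, but the probe set identifiers belong to another design, and which model was used remains unknown. No genome build is named for the table, and probe positions are not given. Of 29129 probe sets, 19572 had 1 gene symbol in the platform annotation, brought up to date through RefSeq names (GRCm38.p6), and probe sets of a gene were averaged. A gene was kept if 1 array reached the 95th percentile of 1410 receptor genes. For each gene the difference, its fold and its place among genes of like level (20 bins) were computed. No p-value is given. Groups came from the genotype label of each sample.

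The 38 genes, their roles and the other lists were chosen with earlier results of these data known. All 37 measured genes are named, and, of each pathway list, those past 1.5-fold. A few more are given as examples or for their role, chosen after their values were seen. Alternatives were no floor, a stricter floor at the median level, subtraction of the median difference, quantile normalization, loess correction (span 0.3), the probe set with the highest mean, 32 added before the logarithm, and thresholds of 0.32 on the log2 scale and of 2-fold. Counting past a threshold was tried on simulated data with shifts well above 1.5-fold. Those shifts were larger than any difference of the 37 genes, so the trial says nothing about differences of that size. Python 3.11.15, pandas 2.3.3, numpy 2.4.6, statsmodels 0.14.6 and matplotlib 3.10.9 were used. The deposited columns had not been brought to 1 distribution: their medians over all probe sets were 3.22 (circKcnt2-deficient) and 3.27 (WT), and their sorted values lay up to 0.28 apart. Precision is limited by the number of arrays.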

Additional observations from a re-analysis of the deposited data

How the results depend on the processing

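The counts of genes at least 1.5-fold higher or lower were 0 and 0, and stayed at 0 under each other scaling. The floors, the probe set rule and a 2-fold threshold could not raise these counts, since all 37 genes were above background and had 1 probe set each. At a log2 threshold of 0.32 they were 10 higher and 1 lower. With 32 added before the logarithm, 6 and 0 passed this threshold, against 6.41% and 0.99% of all genes. After quantile normalization or loess correction 1 and 1 passed it. The shares over all genes were then 17.2% and 18.2% (quantile) and 18.5% and 15.8% (loess). The median of the 37 genes was 0.18 as deposited and 0.02 after quantile normalization, where the medians by role were -0.06 for receptor chains, -0.04 for surface receptors, 0.20 for kinases, 0.04 for adaptors, -0.02 for downstream genes and 0.29 for phosphatases and negative regulators. The loess correction gave like values, also below 0 for receptor chains, surface receptors and downstream genes. Of 185 values of single genes, 23 changed sign, all under median subtraction, quantile normalization or loess correction. The probe set rule and the addition of 32 could not change a sign, yet their values are among the 185. Raising the floor to the highest GC-matched control, chosen after seeing the data, kept 34 of the 37 genes, with a median of 0.19, beside 0.16 for the 3467 genes above it. No paired analysis was possible because each genotype had 1 array. Depth does not apply to arrays, where signal over background is the limit, and the levels of Bcl10, Malt1 and Nfatc2 lie within the range of control probes.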

Other observations

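Markers of other cell types give the setting of these values. Among B and plasma cell markers the widest gap was that of Jchain, the joining chain of secreted antibodies, at 4.30 in circKcnt2-deficient cells and 6.72 in WT cells, whereas Cd79b, a chain of the B cell receptor, was at 4.87 in circKcnt2-deficient cells and 3.91 in WT cells. None of the list was above the highest GC-matched control on both arrays. Of 4 measured gamma delta T cell markers, Cd163l1 was at 3.45 in circKcnt2-deficient cells and 4.22 in WT cells, and none of the 4 was above that control on both arrays. No NK cell, myeloid or epithelial marker of the lists was above that control on both arrays, and of the ILC2 list 1 was, Il17rb, at 7.01 in circKcnt2-deficient cells and 6.62 in WT cells. Rag2, of the recombinase that rearranges antigen receptor genes, was at 6.80 in circKcnt2-deficient cells and 6.17 in WT cells. The part of these cell types in the differences of the receptor pathway was not tested.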
